A study of Rattus norvegicus with 67 samples.

Results

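The RT1 complex is the major histocompatibility complex of the rat. It was taken here as chromosome 20 from 1.5 Mb to 5.5 Mb in the Rnor 6.0 genome, which holds 4000 of the 2782040 windows of 1000 bp in which histone H3 retention was counted in sperm. The windows were chosen by position alone. The study used F3 generation males of outbred Hsd:Sprague Dawley SD (Harlan) rats, whose F0 generation ancestor was given 25 mg/kg atrazine (atrazine lineage) or the vehicle dimethyl sulfoxide, DMSO (control lineage), daily on days 8 to 14 of gestation. The F3 males themselves were not exposed, and sperm was collected from the cauda epididymis at 1 year of age. Counts were given for 50 atrazine lineage animals (19 without disease, 5 lean, 3 with kidney disease, 4 with testis disease, 5 with late puberty and 14 with multiple disease). Counts were given for 16 control lineage animals (9 without disease, 3 obese, 2 with multiple disease, 1 with late puberty and 1 with kidney disease). Control lineage animal M1 had no counts here, and the disease comparisons used the same 17 atrazine lineage animals without disease, which leaves out M59 and M68.

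The proteins of the major histocompatibility complex show peptides to T cells. Class I molecules show peptides from inside the cell, class II molecules show peptides that were taken up from outside, and the class III genes between them include complement components. In the rat, RT1-A genes are the classical class I genes, while the RT1-CE, RT1-N, RT1-S, RT1-T and RT1-M genes are nonclassical class I genes, which form clusters of similar copies. Most histones in sperm are replaced by protamines, and ChIP-Seq with a histone H3 antibody counts DNA from sites where histones were retained.

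Gene names on the Rnor 6.0 positions were read from the annotation of the regions listed by the study, and a window without such an entry is given without a gene. Promoters were read from RefSeq on the newer GRCr8 build, from 250 bases before to 50 bases after the start of a gene, and 42 of the 67 RT1 genes of that annotation had one. The builds differ, so these letters were not placed on the counted windows. The first 4 promoters shown belong to class I genes at the regions described for the lineages, with capitals for the matches to 3 of the 4 motifs searched on either strand, the CCAAT box, the interferon response element (GAAA, any 2 bases and GAAA again) and the core of enhancer A (GGGG, ATT and CCCC in 1 run), 5′ to 3′ on the strand of the gene.
RT1-N2 (chr20:2646080-2646379, plus strand): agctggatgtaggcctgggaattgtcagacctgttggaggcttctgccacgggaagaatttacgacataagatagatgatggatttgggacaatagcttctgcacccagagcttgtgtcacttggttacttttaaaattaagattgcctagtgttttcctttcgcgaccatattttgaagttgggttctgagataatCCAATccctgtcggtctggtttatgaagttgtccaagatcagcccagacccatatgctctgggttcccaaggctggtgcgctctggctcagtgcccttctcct
RT1-S2 (chr20:2654804-2655103, plus strand): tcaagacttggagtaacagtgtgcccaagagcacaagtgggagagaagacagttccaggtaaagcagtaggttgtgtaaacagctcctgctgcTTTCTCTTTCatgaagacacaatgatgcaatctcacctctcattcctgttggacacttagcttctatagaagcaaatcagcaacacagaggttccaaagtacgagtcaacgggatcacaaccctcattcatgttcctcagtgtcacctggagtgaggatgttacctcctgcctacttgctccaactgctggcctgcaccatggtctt
RT1-N3 (chr20:2666239-2666538, plus strand): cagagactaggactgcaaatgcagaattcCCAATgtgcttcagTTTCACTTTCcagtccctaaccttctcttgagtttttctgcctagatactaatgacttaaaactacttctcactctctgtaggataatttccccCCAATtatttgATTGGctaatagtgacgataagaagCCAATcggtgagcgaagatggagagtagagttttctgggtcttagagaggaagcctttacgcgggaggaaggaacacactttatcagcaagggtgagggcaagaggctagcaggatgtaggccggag
RT1-CE4 (chr20:3509107-3509406, minus strand): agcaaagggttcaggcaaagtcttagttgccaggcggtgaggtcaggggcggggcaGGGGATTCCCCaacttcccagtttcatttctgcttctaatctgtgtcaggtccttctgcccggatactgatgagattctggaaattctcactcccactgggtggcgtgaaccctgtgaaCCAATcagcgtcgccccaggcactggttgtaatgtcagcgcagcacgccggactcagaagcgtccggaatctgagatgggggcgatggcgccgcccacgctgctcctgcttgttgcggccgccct
The classical class I genes RT1-A2 and RT1-A1 are shown with capitals for the longest run of bases that both promoters hold. This run is 71 bases, longer than a single read of about 50 bases, and the reads were sequenced in pairs.
RT1-A2 (chr20:4872621-4872920, plus strand): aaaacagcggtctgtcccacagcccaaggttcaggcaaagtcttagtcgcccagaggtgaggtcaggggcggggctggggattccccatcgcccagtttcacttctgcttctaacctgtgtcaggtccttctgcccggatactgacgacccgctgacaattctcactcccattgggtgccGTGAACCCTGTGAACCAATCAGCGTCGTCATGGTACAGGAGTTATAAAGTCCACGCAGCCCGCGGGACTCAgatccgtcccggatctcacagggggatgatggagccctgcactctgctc
RT1-A1 (chr20:4906959-4907258, plus strand): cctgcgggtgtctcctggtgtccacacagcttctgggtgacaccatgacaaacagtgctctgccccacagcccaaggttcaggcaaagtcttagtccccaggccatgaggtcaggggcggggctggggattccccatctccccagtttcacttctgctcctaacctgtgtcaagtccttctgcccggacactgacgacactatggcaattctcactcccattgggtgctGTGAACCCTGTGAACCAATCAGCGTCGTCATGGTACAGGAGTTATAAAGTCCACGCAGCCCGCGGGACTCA

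CCAAT or its reverse ATTGG was in 31 of the 42 RT1 promoters (73.8%), and in 37.5% of all 33469 rat promoters of the same length. The class II genes had it in 9 of 9 and the class I genes in 22 of 33. The enhancer A core was in 8 of the 42, all of them class I, and in 0.0627% of all promoters, while the interferon response element was in 3 of the 42 and in 3.92% of all. The fourth motif, the core of the X2 box (TGACG or its reverse CGTCA), was in 10 of the 42 (23.8%; 9 of 33 class I and 1 of 9 class II) and in 21.2% of all promoters, so its share was near that of all promoters. None of the 4 motifs overlapped another in the promoters shown. The promoters of RT1-CE5 and RT1-CE1, named at the same regions but not shown, had 2 and 0 matches to the CCAAT box. Neither had the enhancer A core or the interferon response element. A run of at least 50 identical bases was shared by 9 of the 528 pairs of class I promoters, which involved 9 of the 33 genes and reached 95 bases for RT1-CE16 and RT1-A3. The longest run between any of the 36 pairs of class II promoters was 14 bases, and the promoters of RT1-N2, RT1-S2 and RT1-N3 shared at most 11 bases with each other. The promoter of RT1-S2 shared 32 bases with that of RT1-S3. A single read that lies within a shared run matches both copies, though its mate may lie outside the run. How reads were divided between copies was not tested. Counts at RT1-A and RT1-CE genes, and at RT1-M6-1, whose promoter shares 70 bases with that of RT1-M6-2, are given as uncertain between copies. Only promoters were compared, so whether reads elsewhere, those at RT1-N, RT1-S and C4a among them, match several copies was not tested.

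Total counts were between 19909382 and 239635003 reads per animal, and between 29685 and 362298 of these reads were in the RT1 region. The median total was 57362330 for atrazine and 56331334 for control lineage animals. Counts were given for each animal although the methods describe sperm pools, and the antibody is named both as a pan H3 antibody and as one for a trimethylated form. A treatment tag names the agent of the opposite lineage for each of the 16 control animals and for 13 of the atrazine animals, so grouping followed the titles and lineage tags. The libraries of lean animal M28 and multiple disease animal M48 had uneven profiles over all of chromosome 20, so the results that rest on them are given with and without them. No pair of libraries agreed within sampling noise, as the lowest chi-square per degree of freedom was 2.02, for control lineage animals M12 and M15.

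A larger share of the windows had many reads in the RT1 region than in the rest of chromosome 20. A larger share also had few reads. Windows with many reads are called strong sites below, and whether their reads reflect histone retention or the number of copies was not tested. Windows above 2 times the median window of the rest of the chromosome made up 343 of the 4000 windows (8.58%) and 736 of the 52206 others (1.41%). Windows above 5 times this median made up 88 (2.20%) and 48 (0.0919%). The window with the most reads of the chromosome was outside RT1, with a mean of 1009 reads per animal, compared with 237 for the highest RT1 window. At the other end, 673 RT1 windows had a mean under 10 reads, 177 of them with no read in any animal, and 3327 (83.2%) could be tested, compared with 91.8% of the rest of the chromosome.

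The mean level of the RT1 windows was 1.15 times that of the rest of chromosome 20 (mean log2 ratio 0.20 ± 0.15, SD, n = 66 animals). The ratio was above 1 in 65 of 66 animals, with a two-sided permutation p of 1e-05, the smallest that 100000 resamples can give. All animals share the same windows, so this p tells how repeatable the ratio was between animals. It does not tell whether RT1 stands out among blocks of 4 Mb. The mean per window was 0.415 RPM (reads per 1000000 reads of the library) in RT1. It was 0.406 RPM in the block from 37.5 Mb, so a similar level was found elsewhere on the chromosome. The difference between RT1 and the rest of the chromosome rested on the strong sites. Without the windows above 5 times the median the log2 ratio was 0.05 (36 of 66 animals above 0, permutation p = 0.0110). With the median window in place of the mean it turned to -0.10 (6 of 66 animals above 0, permutation p = 9e-05). The highest ratios were 2.03 in M48 and 1.57 in M28, then 1.49 in M22, which had no disease, 1.35 in lean animal M42 and 1.32 in control lineage animal M17.

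Most of the strong sites lay in the last 1000 kb of the region, and others lay in several blocks between 2500001 and 3100000. Of the 343 windows above 2 times the median, 145 were in the 500 kb from 4500001 and 55 in the 500 kb from 5000001, while 45, 13, 27 and 24 were in the 100 kb from 2500001, 2600001, 2900001 and 3000001. In segments of 500 kb, the level was between 0.833 and 1.22 times the rest of the chromosome in 7 of the 8 segments and 2.10 ± 0.333 (SD, n = 66; lowest 1.52, highest 3.87) in the segment from 4500001 to 5000000, which holds the RT1-CE genes. Of the 40 segments of 100 kb, the highest were at 4600001 (3.21 ± 0.396), 4700001 (2.72 ± 0.276) and 2500001 (2.29 ± 0.126). At 2500001 the level was 2.28 in atrazine lineage animals and 2.34 in controls, so this block was not higher in the atrazine lineage. The lowest level was 0.370 ± 0.0914, at 2800001, where only 25.0% of the windows could be tested.

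**Figure D1:**
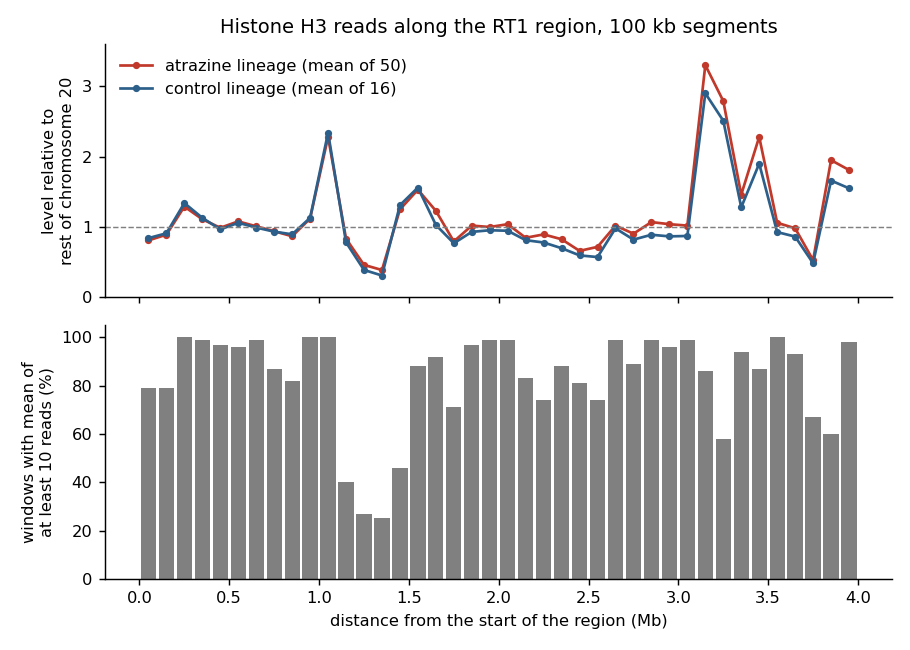
Histone H3 level in 40 segments of 100 kb of the RT1 region, against the distance from the start of the region in Mb. The upper panel gives the mean reads per window relative to the rest of chromosome 20 for the atrazine lineage (n = 50) and the control lineage (n = 16), with the highest point at 3.30 and 2.90, and the lower panel gives the percent of windows that could be tested (mean of 10 reads or more), which falls to 25.0%.

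The window with the most reads, from 4765001 to 4766000, had 4.08 ± 0.622 RPM (reads per 1000000 reads of the library; n = 66), which is 10.7 times the median window of the rest of the chromosome. It had 4.18 ± 0.566 RPM in atrazine lineage animals and 3.77 ± 0.702 in controls. The next was at RT1-CE1 and RT1-CE4, from 4678001 to 4679000, with 3.87 ± 0.780 RPM. In this window 14 of the 50 atrazine lineage animals (lowest 2.78, median 3.87, highest 6.11) lay above all 16 control lineage animals (2.56, 3.22 and 4.45). The level per kb in the class I regions named was 4.43 times the chromosome's at RT1-CE1 and RT1-CE4 (4662001 to 4681000), 4.40 times at RT1-CE5 and its neighbours (4894001 to 4936000) and 4.25 times at RT1-A1 and RT1-A2 (5366001 to 5381000). It was 4.89 times at RT1-CE1, RT1-CE4, RT1-CE7 and Ddx39b (4800001 to 4803000) and 3.27 times at RT1-A1 and Vps52 (5407001 to 5423000). The annotation gives RT1-CE1 and RT1-CE4 for 3 separate places (from 4662001, 4800001 and 4894001) and RT1-A1 for the places from 5366001 and 5407001, so a level at one of these names belongs to the place and cannot be assigned to a single gene. C4a, which encodes the complement component C4 in the class III part, was at 4.38 times (2647001 to 2651000). The region of RT1-N2, RT1-S2 and RT1-N3 was at 1.32 times, so it was not among the strong sites. The places at RT1-T24-1, Gnl1 and Prr3 (3288001 to 3291000) and at RT1-M4 and RT1-M6-1 (2052001 to 2053000) were at 1.14 and 1.10 times. All of these places were taken from the regions that the study listed as differing between groups.

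The animals departed from each other more in the RT1 region than in the rest of the chromosome when each library was scaled to its total, while the order of RT1 and the next 4 Mb depended on the scaling. The departure of an animal is the mean over windows of its squared relative distance from the median animal, with the counting error taken off. It was 0.325 on average in RT1 and 0.144 in the rest (medians 0.0543 and 0.0470), higher in RT1 in 41 of 66 animals (permutation p = 3e-05). Without M28 and M48 the means were 0.0691 and 0.0576, and RT1 was higher in 39 of 64 animals (permutation p = 0.000300). With windows of at least 20 reads on average, the difference was 0.162, RT1 was higher in 27 of 66 animals and the permutation p was 0.115. Against the 4 Mb after the region, RT1 was lower by 0.128 (0.325 and 0.453; permutation p = 0.0556, an alternative chosen after the values were seen).

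A few animals carried most of this spread. M48 departed by 15.5, M28 by 1.56, M22 by 0.591, M42 by 0.251 and M17 by 0.183, while the median animal departed by 0.0543. M48 and M28 stood out in the rest of the chromosome too, with departures of 5.14 and 0.671. When each library was scaled to its own reads in the windows measured (the RT1 windows to the reads in RT1, and the rest to the reads in the rest), the mean departures were 0.0865 in RT1 and 0.0962 in the rest (difference -0.00974, permutation p = 0.463, chosen after the values were seen). With the next 4 Mb likewise scaled to its own reads, RT1 departed more than it (0.0865 and 0.0615, higher in 45 of 66 animals, permutation p = 5.00e-05). The departure was 0.410 in atrazine lineage animals and 0.0598 in controls (medians 0.0553 and 0.0438), with a permutation p of 0.452, and 0.0722 and 0.0598 without M28 and M48 (permutation p = 0.633).

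The stretches of 5 windows with the largest spread between all animals began at 4044001, 4333001, 4582001, 3849001 and 5005001. M48 was the highest and M28 the second in each of them. At 4333001, for example, M48 had 24.9 RPM and M28 8.12, and the median animal had 1.91. Without these 2 animals the stretches with the largest spread began at 4044001, 2875001, 3151001, 3143001 and 4066001. Those at 3151001 and 3143001 are both in the RT1-N2, RT1-S2 and RT1-N3 region. At 3151001 the animals ranged from 0.729 to 4.66 RPM (median 2.11), with M22 the highest and M55, another atrazine lineage animal without disease, the second at 4.18.

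The comparison of the lineages asked whether ancestral atrazine exposure goes with a different share of histone H3 ChIP reads in the RT1 region. The share was 1701 ± 402 RPM in the atrazine lineage (n = 50; lowest 1493, median 1600, highest 4133) and 1528 ± 149 RPM in the control lineage (n = 16; 1376, 1485 and 1957). All 50 atrazine lineage animals lay above the control median, but the 2 ranges overlapped. The difference of 173 RPM (11.3%) did not pass the test (permutation p = 0.0881, Benjamini-Hochberg adjusted over the 6 comparisons p = 0.264). Without M28 and M48 it was 104 RPM (permutation p = 0.0141), and with the rest of chromosome 20 as the denominator the permutation p was 0.0277, neither of them adjusted. With the ranks of the animals in place of the values, chosen after the values were seen, the permutation p was 7.00e-05. The lineage difference was larger, at 228 RPM, without the 13 atrazine lineage animals whose tag says DMSO (permutation p = 0.0402, not adjusted). These 13 animals had from 1493 to 1698 RPM, all within the control range. Whether the share differs between the tags was not tested.

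A higher share in the atrazine lineage was not particular to RT1. The medians of the lineages differed by 7.75% in RT1, by 10.9% in the next 4 Mb and by 8.81% in the 4 Mb after that. Further along the chromosome the difference fell to 1.81% in the block from 25.5 Mb, and it was negative in 5 of the last 6 blocks, from -3.58% to -5.89%. Of the blocks of the chromosome, only RT1 had all 50 atrazine lineage animals above the control median, while the next 2 blocks had 47 each. The block from 17.5 Mb had 48, with a difference of the medians of 7.10%. These differences between blocks were not tested.

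**Figure D2:**
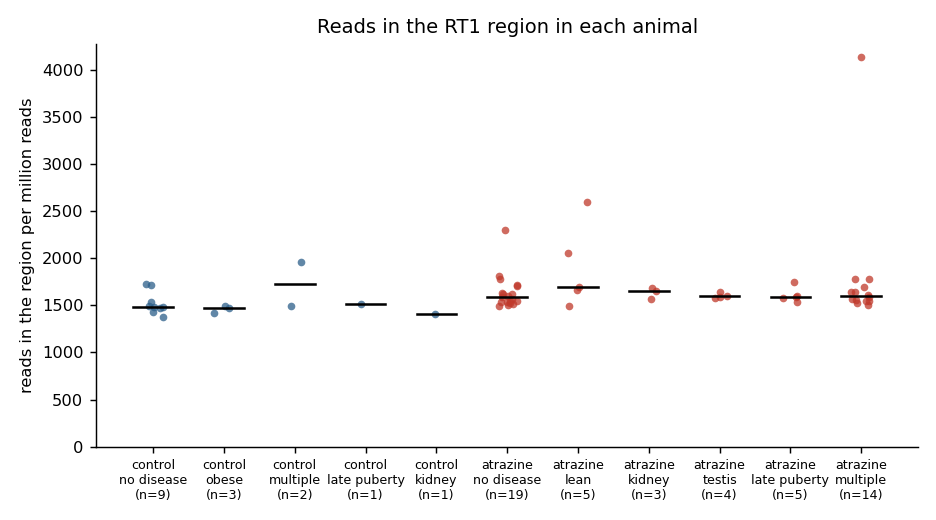
Reads in the RT1 region in RPM for each animal by lineage and disease group; each point is an animal and each bar the median of its group. The highest atrazine lineage animals were M48 with 4133, M28 with 2600 and M22 with 2299 RPM, and the highest control lineage animal was M17 with 1957 RPM.

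Single windows that differed between the lineages were more common in RT1 than in the genome or the rest of chromosome 20. The next 4 Mb was not counted apart. With edgeR's quasi-likelihood test, 19 of the 3327 RT1 windows had p below 0.0001 (0.571%). This was so for 0.0133% of all windows tested in the genome and 4 of 47936 in the rest of chromosome 20. Of the 19, 16 lay in 1 stretch of 27 kb. All 19 were higher in the atrazine lineage, as were 226 of the 330 windows of the genome with such a p. Without M28 and M48 the count was 34 of 3325 (1.02%), and it rose over the genome too, to 71 of 200000 windows drawn from all those tested (0.0355%). At p below 0.05, 546 RT1 windows passed (16.4%, against 6.24% of the genome and 6.75% of the rest of the chromosome). Of these, 515 were higher in the atrazine lineage (15.5% of the windows tested, against 3.57% of the genome) and 31 were lower. The median log2 difference was 0.135 over the RT1 windows, 0.033 over the rest of the chromosome and 0.005 over the genome. After adjustment over all windows, 1 RT1 window remained, of 3 in the genome (0.000121%).

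**Figure D3:**
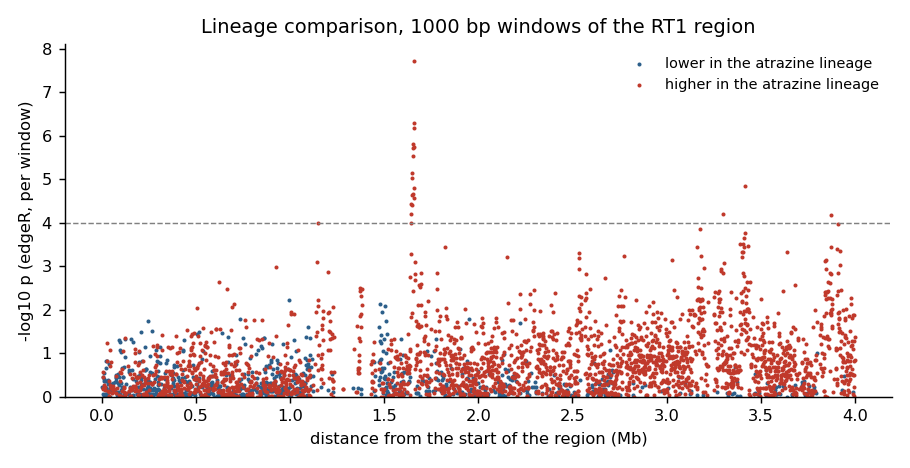
Comparison of the lineages in each tested RT1 window, as -log10 p of edgeR's quasi-likelihood test against the distance from the start of the region in Mb, colored by direction. The 19 points above the dashed line at 4 (p = 0.0001) are all higher in the atrazine lineage, and 16 of them stand in 1 column, the RT1-N2, RT1-S2 and RT1-N3 region.

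The column of windows near RT1-N2, RT1-S2 and RT1-N3 formed a stretch of 27 kb, from 3138001 to 3165000. This stretch and the other lineage stretches below were chosen by their p-values in these same animals. Their values describe them and are no independent evidence of a difference. RT1-N and RT1-S genes are nonclassical class I genes, and RT1-N2, RT1-S2, RT1-O1, RT1-N3 and RT1-S3 follow each other in this order in the RefSeq annotation. All 27 windows were higher in the atrazine lineage, 16 of them with p below 0.0001, with a median log2 difference of 0.73 and a highest one of 0.98. The stretch had 13.8 ± 3.89 RPM in the atrazine lineage (lowest 9.73, median 12.4, highest 26.1) and 8.90 ± 1.79 RPM in the control lineage (5.91, 9.16 and 11.0). Of the 50 atrazine lineage animals, 37 lay above every control lineage animal, and 10 of the 16 controls lay below every atrazine lineage animal. Between 9.73 and 11.0 RPM the lineages overlapped. Without M28 (21.1) and M48 (24.5) the atrazine lineage had 13.5 ± 3.47 RPM (n = 48).

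The window of this stretch from 3161001 to 3162000 had the smallest p of the region. It had 0.591 ± 0.212 RPM in the atrazine lineage (lowest 0.195, median 0.584, highest 1.14) and 0.310 ± 0.110 in the control lineage (0.138, 0.285 and 0.580). The log2 difference was 0.98 ± 0.16 (SE), with an edgeR adjusted p of 0.0237, and 48 of 50 atrazine lineage animals lay above the control median. In bins of 10 kb, the bin from 3150001 to 3160000 was the only RT1 bin of 354 with an adjusted p below 0.05, and 12 bins of the genome passed (0.00468%). At p below 0.05, 91 of the 354 RT1 bins passed (25.7%, against 13.2% of the genome), 90 of them higher in the atrazine lineage. This bin had 5.29 ± 1.51 RPM in the atrazine lineage (3.29, 4.72 and 9.80) and 3.15 ± 0.760 in the control lineage (1.89, 3.31 and 4.47), a log2 difference of 0.78 ± 0.12 (SE) with an edgeR adjusted p of 0.000755.

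**Figure D4:**
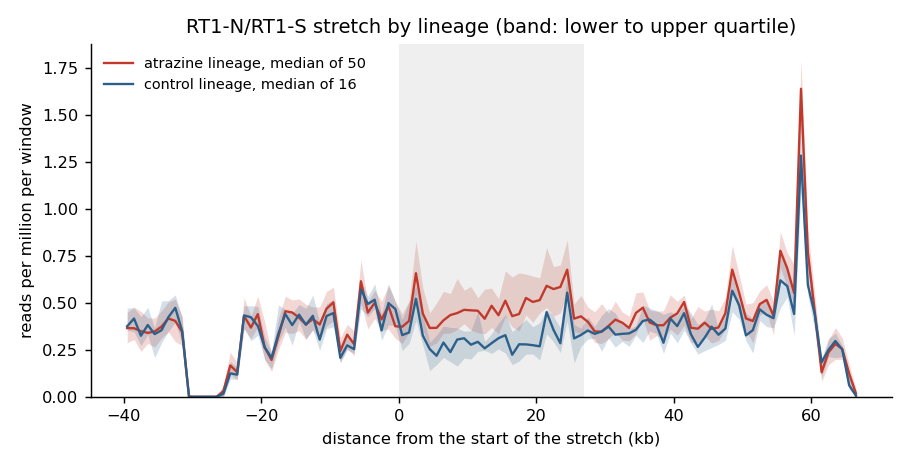
RPM per window of 1000 bp around the RT1-N and RT1-S stretch, against the distance from its start in kb. Lines are the medians of the atrazine lineage (n = 50) and the control lineage (n = 16), the colored bands reach from the lower to the upper quartile of the animals, and the grey area is the stretch of 27 kb, where the atrazine line runs above the control line.

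The mean of this stretch was above that of the control lineage in each disease group of the atrazine lineage. Since the stretch was chosen by the lineage comparison of these same animals, this is no independent evidence of a difference. The stretch had 13.9 ± 4.17 RPM in the 19 animals without disease, 14.5 ± 3.84 in the 5 lean animals, 15.2 ± 2.54 in the 3 with kidney disease and 15.6 ± 4.47 in the 4 with testis disease. It had 13.7 ± 4.22 in the 14 with multiple disease and 11.1 ± 1.16 in the 5 with late puberty (lowest 9.73, highest 12.7), the lowest mean of these groups. In the control lineage it had 9.07 ± 1.68 in the 9 without disease, 9.37 ± 1.46 in the 3 obese animals, 9.55 and 10.9 in the 2 with multiple disease, 6.26 in the 1 with late puberty and 5.91 in the 1 with kidney disease. The 13 atrazine lineage animals whose tag says DMSO had 13.3 ± 3.01 RPM, and the other 37 had 14.0 ± 4.17.

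**Figure D5:**
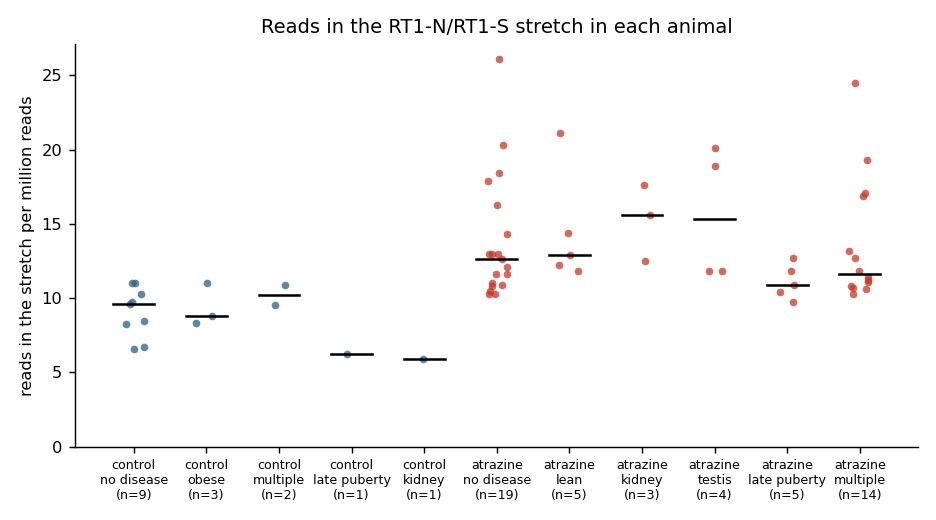
RPM in the RT1-N and RT1-S stretch of 27 kb for each animal by lineage and disease group; each point is an animal and each bar the median of its group. The control lineage animals sit between 5.91 and 11.0 RPM, and the atrazine lineage animals between 9.73 and 26.1 RPM.

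The other stretches of at least 5 kb were at class I genes too, each with 1 window with p below 0.0001, and each window in them was higher in the atrazine lineage. The stretch from 4894001 to 4936000 (42 kb), annotated to RT1-CE1, RT1-CE4, RT1-CE5 and RT1-CE7, had 69.8 ± 17.5 RPM in the atrazine lineage (53.9, 64.3 and 153) and 55.7 ± 8.91 in the control lineage (39.9, 55.3 and 77.2), with a median log2 difference of 0.33. The stretch from 5363001 to 5381000 (18 kb), at the classical class I genes RT1-A1 and RT1-A2, had 26.4 ± 6.05 RPM (lowest 19.8, median 25.4, highest in M48) and 21.3 ± 3.30 (16.1, 20.6 and 30.1), with a median of 0.32. The ranges of the lineages overlapped more in these stretches than at RT1-N and RT1-S: 13 and 8 of the 50 atrazine lineage animals lay above all controls. The stretch from 4800001 to 4808000 (8 kb) is annotated to RT1-CE1, RT1-CE4, RT1-CE7 and Ddx39b, which encodes an RNA helicase of mRNA splicing and export. It had 8.00 ± 2.02 and 6.31 ± 1.01 RPM, and 13 atrazine lineage animals lay above all controls. The smallest edgeR adjusted p in these stretches was 0.533. Without M28 and M48 the means of the atrazine lineage were 67.3, 25.6 and 7.70 RPM.

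More places that the study listed for the lineages have a gene, and since they were chosen on these animals they are no independent evidence of a direction. At C4a, 4 of 4 windows were higher in the atrazine lineage, 3 of them with p below 0.05, with 6.53 ± 1.39 and 5.42 ± 0.825 RPM. At RT1-CE1 and RT1-CE4 (4662001 to 4681000), 19 of 19 were higher, 17 with p below 0.05, with 31.5 ± 7.18 and 25.7 ± 2.76 RPM. At RT1-A1 and Vps52, which encodes a tethering factor of vesicle transport (5407001 to 5423000), 16 of 16 were higher, 14 with p below 0.05, with 19.8 ± 6.10 and 15.7 ± 2.61 RPM. None of these 3 places had a window with p below 0.0001 in edgeR's quasi-likelihood test.

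More RT1 bins passed under some other settings, and all of these were higher in the atrazine lineage. The bin from 3150001 to 3160000 passed in 6 of the 7 alternatives and the bin from 3140001 to 3150000 in 5. Without M28 and M48, 10 of 355 RT1 bins had an adjusted p below 0.05 (2.82%). In the genome 450 of 258176 did (0.174%), 365 of them higher. Without the 13 animals whose tag says DMSO, 9 of 353 RT1 bins passed (2.55%), against 1558 of 254594 in the genome (0.612%, 1304 higher). DESeq2's Wald test gave 9 of 354 RT1 bins (2.54%), against 1036 of 256634 in the genome (0.404%, 774 higher). Among animals without disease (19 and 9), 0 bins passed in the genome with edgeR, while 73 of 364 RT1 bins had p below 0.05, against 21371 of 262205 bins of the genome (8.15%). The bin from 3150001 to 3160000 had a log2 difference of 0.82 (p = 4.36e-06 before adjustment).

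The window with the smallest p among those lower in the atrazine lineage was from 2495001 to 2496000, with 0.390 ± 0.121 and 0.500 ± 0.101 RPM. Its edgeR adjusted p was 0.801. The lower bin with the smallest p, from 3260001 to 3270000, had 1.77 ± 0.304 and 2.11 ± 0.523 RPM and an edgeR adjusted p of 0.233.

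The disease comparisons asked whether sperm of atrazine lineage animals with a disease differed from that of the 17 animals without disease, and they share these 17 animals. The lean group had the highest mean share of reads in RT1 of the disease groups (1900 ± 441 RPM), with 2600 RPM in M28, 2050 in M42, 1696 in M54, 1663 in M56 and 1493 in M66. The animals of this group lay far apart, since M66 had the lowest share of all 50 atrazine lineage animals, while the highest single share was in M48 of the multiple disease group. The 17 animals without disease had 1651 ± 191 RPM (lowest 1497, median 1602, highest 2299). M28 alone lay above all 17. The difference of 249 RPM had an exact permutation p of 0.0593 and an adjusted p of 0.264. It was 74.2 RPM without M28 (exact permutation p = 0.551) and 212 RPM without M42 (exact permutation p = 0.107). Without M54, M56 or M66 it was 300.2, 308 and 351 RPM, with exact permutation p-values of 0.0466, 0.0443 and 0.0289 before adjustment.

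In RT1 windows, 5 of 3277 had p below 0.0001 between lean animals and those without disease (0.153%), all higher in lean animals, compared with 0.0400% of the genome. At p below 0.05, 549 passed, 494 of them higher (16.8% in both directions, against 11.4% of the genome and 13.1% of the rest of chromosome 20). Without M28, 152 of 3276 passed (4.64%), which is below the 6.29% of 200000 windows drawn from the genome. The smallest edgeR adjusted p was 0.239. This depended on lean animal M28, since without it 0 windows had p below 0.0001. Without M42 the count was 2 (0.0616%, against 0.0125% of the windows drawn from the genome), and without M56 it was 1 (0.0303%, below the 0.0495% of the genome). No RT1 bin of 350 had an adjusted p below 0.05 with edgeR or DESeq2, as in the whole genome with edgeR (0%), and 131 bins had p below 0.05 (37.4%, against 25.4% of the genome). Without M28 these were 23 of 351 RT1 bins, against 7.76% of the bins of the genome. Without M66, 134 RT1 bins passed after adjustment, as did 56649 of 249228 bins of the genome.

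The longest lean stretch, from 4362001 to 4367000, followed M28 most, with 7.06 RPM in M28, 2.66 in M42, 2.42 in M54, 1.93 in M56 and 1.39 in M66. The 17 animals without disease had 1.83 ± 0.599 RPM, up to 3.81. Its window from 4363001 to 4364000 had the smallest p of the comparison (log2 difference 1.14 ± 0.27, SE; 0.55 without M28). In the window from 5389001 to 5390000, which has no gene here, all 5 lean animals (1.59 RPM in M28, 2.07 in M42, 1.35 in M56, 1.33 in M66 and the lowest value in M54) lay above all 17 animals without disease (up to 1.28). A window of Vars, a gene of a tRNA synthetase for valine (4986001 to 4987000), had 0.793, 0.610, 0.707, 0.620 and 0.443 RPM in the lean animals and from 0.126 to 0.501 in the 17 (median 0.349). The stretch at RT1-T24-1, Gnl1 and Prr3 (3288001 to 3291000) had 2.53, 1.80, 1.50, 1.79 and 1.48 RPM and 1.15 ± 0.292, and only M28 lay above all 17 there. The remaining lean stretch, from 3364001 to 3368000 without a gene here, had 2.91, 2.22, 1.53, 2.15 and 1.66 RPM. The 17 had 1.49 ± 0.312 RPM, and again only M28 lay above all of them. These lean places were chosen by their p-values in these same animals, so their values are no independent evidence of a difference. Each had a smallest edgeR adjusted p of 0.239. How many windows separate the groups fully was not counted.

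The lean window with the smallest p in the other direction was from 1766001 to 1767000, with 0.190 ± 0.103 RPM in lean animals and 0.422 ± 0.119 in the 17 (log2 difference -1.09, edgeR adjusted p = 0.239). The lean bin with the smallest p, from 3280001 to 3290000, includes RT1-T24-1 and had 6.39 ± 1.67 and 4.65 ± 0.691 RPM (edgeR adjusted p = 0.149). The lower lean bin with the smallest p, from 1610001 to 1620000, had 2.56 ± 0.616 and 3.47 ± 0.528 RPM (edgeR adjusted p = 0.149).

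The shares of the other disease groups lay within the range of the 17 animals, except M48. They were 1633 ± 61.7 RPM for kidney disease (n = 3), 1601 ± 31.5 for testis disease (n = 4), 1609 ± 80.6 for late puberty (n = 5) and 1793 ± 679 for multiple disease (n = 14; lowest 1502, median 1594, highest 4133). The differences from the 17 were -18.1, -50.6, -42.5 and 141 RPM. Their adjusted p-values were 0.853, 0.776, 0.776 and 0.776, from exact permutation tests for the first 3 and a permutation test for multiple disease, which had a difference of -38.7 RPM without M48.

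Kidney disease gave 0 RT1 windows with p below 0.0001 with edgeR and 0 with DESeq2 (0.00239% of the genome with edgeR), and 99 of 3306 with p below 0.05 (2.99%, against 2.77% of the genome). Testis disease gave 1 (0.00529% of the genome) and 146 of 3295 with p below 0.05 (4.43%, against 3.65%), of which 26 were higher. Late puberty gave 0 with both tools (0.00355% of the genome) and 140 of 3288 (4.26%, against 3.49%). Multiple disease gave 0 with edgeR and 1 with DESeq2 (0.00137% of the genome with edgeR, not counted for DESeq2). It gave 160 of 3257 with p below 0.05 (4.91%, against 3.32%), of which 141 were higher. Without M48 the count for multiple disease was 145 of 3242 (4.47%, against 3.91% of 200000 windows drawn from the genome). Single animals decided such counts, since RT1 had 1 window with p below 0.0001 for kidney disease without M60 (0.0306%, against 0.00550% of 200000 windows drawn from the genome) and 1 for late puberty without M35 (0.0302% against 0.00150%). It had 2 for testis disease without M41 (0.0611% against 0.00350%) and 1 for multiple disease without M48 (0.0308% against 0.00650%). These shares of RT1 rest on 1 or 2 windows. No RT1 bin and no bin of the genome (0%) had an adjusted p below 0.05 with edgeR in these 4 comparisons, and DESeq2 called none of the RT1 bins. Bins with p below 0.05 made up 0.563% of RT1 and 1.54% of the genome for kidney disease (2 RT1 bins), and 1.98% and 2.17% for testis disease (7 RT1 bins). They made up 2.56% and 1.93% for late puberty (9 RT1 bins), and 7.56% and 2.35% for multiple disease (26 RT1 bins, each higher in animals with disease). The count for multiple disease rested on M48, since without it 5 of 343 RT1 bins had p below 0.05, against 6651 of 251183 of the genome (2.65%). With table totals in place of TMM factors it was 6 of 344, against 3443 of 248889 of the genome. DESeq2 gave higher counts, with 32 of 344 against 6617 for its size factors and 70 of 344 against 12980 for its Wald test.

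The window called for testis disease, from 4049001 to 4050000, held few reads. Animals M29, M32, M33 and M41 had 0.0175, 0.0150, 0.127 and 0.0130 RPM, and the 17 animals without disease had 0.227 ± 0.156 RPM, from 0 to 0.542. The log2 difference was -2.61 ± 0.59 (SE) with an edgeR adjusted p of 1.000, and it did not keep p below 0.0001 without M29, M32 or M41, when the log2 difference was -2.41, -2.33 and -2.27. Without M33, the animal with the most reads there, it was -3.71 (edgeR p = 3.19e-06). This window is next to the stretch of 4044001 to 4049000, which had the largest spread between animals of the region.

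The late puberty window with the smallest p lay in the RT1-N and RT1-S stretch, from 3150001 to 3151000. It had 0.283 ± 0.0792 RPM in the 5 late puberty animals (lowest 0.193, highest 0.389) and 0.533 ± 0.224 in the 17 (0.288, 0.492 and 1.15), a log2 difference of -0.94 ± 0.24 (SE; edgeR p = 0.000167, adjusted p = 1.000). All 5 animals were below the median of the 17, and 3 were below all of them. For multiple disease, the window with the smallest p was at RT1-M4 and RT1-M6-1, nonclassical class I genes (2052001 to 2053000), of which RT1-M6-1 is uncertain between copies. It had 0.304 ± 0.0920 RPM in the 14 animals (0.149, 0.299 and 0.523) and 0.485 ± 0.104 in the 17 (0.296, 0.495 and 0.675), a log2 difference of -0.61 ± 0.14 (SE; edgeR p = 0.000106, adjusted p = 1.000). Both windows were lower in the diseased animals and neither passed after adjustment. In the window for kidney disease from 2258001 to 2259000, all 3 animals (0.263 to 0.387 RPM) lay above the 17 (up to 0.252), with an edgeR adjusted p of 1.000. Of the 3306 RT1 windows tested, it had the smallest p among those higher in kidney disease. How often all 3 animals lie above the 17 in other windows was not counted.

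The windows with the smallest p in the other direction had no gene here, and each had an edgeR adjusted p of 1.000. For kidney disease the window from 4140001 to 4141000 had 0.312, 0.362 and 0.176 RPM in the 3 animals and from 0.0894 to 0.952 in the 17 (median 0.558). For testis disease the window from 1702001 to 1703000 had 0.438, 0.569, 0.481 and 0.378 RPM in M29, M32, M33 and M41 and from 0.169 to 0.411 in the 17, so 3 of the 4 lay above all 17. For late puberty the window from 1775001 to 1776000 had 0.735, 0.611, 0.464, 0.473 and 0.690 RPM and from 0.215 to 0.564 in the 17, so 3 of the 5 lay above them. For multiple disease the window from 3738001 to 3739000 had 0.686 ± 0.784 RPM (lowest 0.282, median 0.459, highest 3.37) and 0.363 ± 0.116 in the 17, and 3 of the 14 lay above all 17. Its log2 difference was 0.98, and 0.39 without M48.

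In bins the differences were smaller than in single windows, and none of these 8 bins had an edgeR adjusted p below 0.992. Kidney disease had log2 differences of 0.20 in the bin from 1700001 to 1710000 and -0.18 in that from 2580001 to 2590000. Testis disease had 0.19 from 2160001 to 2170000 and -0.34 from 4020001 to 4030000. Late puberty had 0.24 from 4280001 to 4290000 and -0.25 from 2040001 to 2050000. Multiple disease had 0.64 from 4460001 to 4470000, where the mean was 4.96 ± 4.65 RPM and the median 3.69, and -0.09 from 2130001 to 2140000. Without M48 the first of these was 0.06.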

How the data were processed

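Sperm histone H3 ChIP-Seq of 66 animals was used. Per the labels and the methods, the authors trimmed the reads with Trimmomatic, mapped them to Rnor 6.0 with Bowtie2 and counted them with MEDIPS in windows of 1000 bp; tool versions, read extension and the treatment of duplicate reads are not given in the sources used here. The authors deposited these counts without normalization, and the tables hold their fold changes and p-values too, which were not used. Another 298 columns of the tables, which repeat animals or hold normalized values, were not used.

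RPM (reads per 1000000 reads) use the table total of each animal, and the precision is set by totals of 19909382 to 239635003 reads. Groups were compared in R 4.3.3 with edgeR 4.0.16 (quasi-likelihood test, TMM factors, a mean of 10 reads or more per window, bins of 10 kb with a mean of at least 100 reads, dispersion trend from 200000 random windows), and p was adjusted by Benjamini-Hochberg over all windows or bins tested in the genome. A stretch starts at a window with p below 0.0001 and takes in neighbours with p below 0.1 as long as gaps do not exceed 1000 bp. Shares, levels and departures were compared by two-sided permutation of the animals (exact where a group is under 10, otherwise 100000 resamples, by sign flips for RT1 against other windows) in Python 3.11.15 with NumPy 2.4.6. Alternatives were DESeq2 1.42.0 (Wald test, for windows on 50000 random ones together with all of RT1, and size factors), table totals, other filters and animals left out; the edgeR window fits among them covered RT1 and 200000 windows drawn at random from all tested.

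Animals were grouped by their titles, lineage tags and disease labels. The window and the bin of smallest p were named for both directions of each comparison. Lineage stretches of at least 5 kb and the longest stretch of each other comparison were named too. So were the 3 highest windows and the 5 stretches of largest spread. The remaining lean stretches were named after their values were seen. RT1 promoters are from RefSeq (GRCr8). The members and lists were chosen with earlier results of these data known. DNA methylation data and control lineage animal M1 were not analysed here. Separate animals were the replicates, and no library date or lane was given, so batches could not be compared. The paper states that animals were bred within their lineage, and no litter or founder was listed for them here. The tests took the animals as independent, so differences between the founders of the lineages cannot be told apart from the exposure.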

Additional observations from a re-analysis of the deposited data

Results flagged for a closer look

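In 12 sets of 4 to 10 animals of 1 group and measure that were examined for an animal far from the rest of its group, 2 were flagged, and chance flags about 1 in 20. Both were lean animal M28. Its departure from the median profile in the RT1 region was 1.56, while the nearest of the other 4 lean animals had 0.251, a gap of 0.871 of the whole range (critical value 0.71 for 5 animals). In the stretch at RT1-N2, RT1-S2 and RT1-N3, M28 had 21.1 RPM and the nearest lean animal had 14.4 RPM, a gap of 0.721 of the range. The library of M28 departed by 0.671 in the rest of chromosome 20 too, and its part in these values was not tested.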

How the results depend on the processing

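Over the results that answer a comparison, 143 alternatives were taken as unchanged, 24 became stronger, 13 weaker and 7 reversed. For shares, levels and departures, unchanged means the same direction and the same side of the threshold of 0.05. For counts of windows or bins it means an equal or similar count, so counts that stayed at 0 are among the 143. No paired comparison of groups was possible because no animal belongs to more than 1 group, while RT1 was compared with other windows within each animal. The share of the lineages passed with the rest of chromosome 20 as denominator (6920 RPM of it, p = 0.0277), without the 13 atrazine lineage animals whose tag says DMSO (228 RPM, p = 0.0402), without M28 and M48 (104 RPM, p = 0.0141) and with ranks (21.4 ranks, p = 7.00e-05), all permutation tests before adjustment. The lean share passed with all 19 animals without disease (262 RPM, exact permutation p = 0.0467) and ranged from 74.2 to 351 RPM with 1 lean animal left out. The direction of the share turned for kidney disease (ranks 1.76; -43.0 to 16.4 RPM with 1 animal left out) and testis disease (ranks 0.309), and for multiple disease without M48 (-38.7 RPM); none of these had passed. The RT1 level turned with the median over windows (-0.10). The RT1 spread fell below the threshold with a mean of at least 20 reads (0.162, permutation p = 0.115), and turned against the adjacent 4 Mb (-0.128) and with each library scaled to its own reads (-0.00974), while with both together it was 0.0250 (permutation p = 5.00e-05), all 3 chosen after the data were seen.

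RT1 windows with p below 0.0001 numbered 34 for the lineages without M28 and M48 (1.02%, against 0.0355% of 200000 windows drawn from the genome; 0.571% and 0.0133% with all animals). Shares of RT1 and of these drawn windows follow in brackets. For lean they numbered 2 with a mean of at least 20 reads (0.108% and 0.0340%) and 2 without animals whose tag says DMSO (0.0596% and 0.0610%). With 1 lean animal left out they numbered 0 to 6. They were 0 without M28 (0% and 0.0160%), 4 without M54 (0.123% and 0.102%) and 6 without M66 (0.181% and 0.154%). The last 2 shares were near those of the drawn windows. For testis disease they numbered 4 with no filter (0.105% and 0.00650%), 0 with at least 20 reads (0% and 0.00200%), 0 with DESeq2's Wald test, 0 without animals whose tag says DMSO (0% and 0.00700%), 4 with all 19 animals without disease (0.118% and 0.00400%), and 0 to 2 with 1 animal left out. For multiple disease the count was 1 with no filter (0.0262% and 0.00100%), with at least 20 reads (0.0569% and 0.00150%), with DESeq2's Wald test and without M48 (0.0308% and 0.00650%). With 1 animal left out it was 0 to 1 for kidney disease and 0 to 1 for late puberty. RT1 bins with an adjusted p below 0.05 for the lineages numbered 2 with table totals (0.565%, against 0.00234% of the bins of the genome). They numbered 2 with no filter (0.503% and 0.00979%) and 9 with DESeq2's Wald test (2.54% and 0.404%). They numbered 9 without animals whose tag says DMSO (2.55% and 0.612%) and 10 without M28 and M48 (2.82% and 0.174%). Among animals without disease they numbered 0 (0% and 0%). For lean they numbered 0 to 134 with 1 lean animal left out; the 134 came without M66, where 56649 of 249228 bins of the genome passed. The causes were not tested, and 216 of the alternatives for single windows and bins stayed on their side of the threshold. Most of these windows and bins had not passed with the main settings, so for them staying means not passing again. Kidney disease without the animals whose tag says DMSO leaves 1 animal (M23), assumed to vary like the others. The filter of 20 reads was not applied to bins. Windows near 10 reads have a large counting error, which limits single windows more than bins.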
